A study of Homo sapiens with 3 samples.

Results

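The isoform pairs described here are transcripts of 1 gene whose total lengths differ by exactly 3 nucleotides. They were taken from the authors' isoform table as genes with exactly 2 RefSeq protein-coding isoforms, a length difference of 3 nt, a quantification status of OK and, in every library, 5 or more FPKM over both isoforms together. FPKM is the number of fragments per kilobase of transcript, scaled to library size. This gave 59 genes out of 1552 genes with exactly 2 such isoforms that met the same status and FPKM rule, in a table of 41138 isoforms of 23284 genes. At any FPKM above 0 there were 128 genes with a 3 nt pair. Poly(A) RNA was sequenced from HEK293T, a human embryonic kidney cell line that takes up nucleic acids readily. One library came from cells given an siRNA against Arkadia, the ubiquitin ligase encoded by RNF111, one from cells given an siRNA against ESRP2, an RNA-binding regulator of epithelial splicing, and one from cells given a negative control siRNA. All cells were seeded onto siRNA and lipid reagent, kept without TGF-beta and collected 48 h later. With 1 library per siRNA there is no replicate check and no p-value, so every difference below is one between libraries.

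A 3 nt difference between isoforms usually comes from a tandem acceptor, a pair of AG dinucleotides side by side at the end of an intron (the NAGNAG motif). The spliceosome recognises the polypyrimidine tract and the first AG through the U2AF proteins, and the catalytic step then uses either AG. Use of the upstream AG leaves an extra NAG triplet at the start of the exon, which makes the longer isoform, and in coding sequence this keeps the reading frame. ESRP proteins are known for cassette exons of epithelial and mesenchymal transcripts. Whether ESRP2 acts on tandem acceptors was not tested here.

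The triplet could be placed for 39 of the 59 genes from GENCODE 29 transcripts (RefSeq accessions matched, GRCh38 annotation). These 39 are the genes whose matched transcripts shared the end of the upstream exon and had next exon starts 3 nt apart. By this rule the triplet lies at the first bases of an exon. In all 39 it lay in coding sequence. The following junctions belong to the genes whose shares are described in full below. Each is on the transcript strand, 5′ to 3′, with the last 12 bases of the upstream exon, the triplet that only the longer isoform holds in capitals, and the next 15 bases.
CRBN, exon 2 of 11: cgctcctgcctgCAGagagtgaggaagaag
PSEN2, exon 11 of 13: acccggagatggAAGaagactcctatgaca
ZCCHC11, exon 26 of 30: taaaaggaaaagCAGtttactgtttagact
HDGFRP2, exon 16 of 16: agacctgcacgaCAGcgtacgggagggtcc
C11orf68, exon 2 of 2: cgaaggccggagCAGgatggaaccaggtga
AP2A2, exon 8 of 22: acccacccccagAAGaccctgcagtgcgag
CYTH2, exon 9 of 12: tcctgaagctggCAGggggccgggtgaaga
CRTC3, exon 15 of 15: ccatcctgccagAAGactccagcaccagcc
C17orf53, exon 6 of 10: gtgctgcgcaagCAGgcagccctgaagcag
MCM10, exon 5 of 20: aaaaatcccctgTAGagaagtctccccggc
RPL11, exon 2 of 6: tccatcatggcgCAGgatcaaggtgaaaag
PTMA, exon 3 of 5: aacgggaatgctGAGaatgaggaaaatggg
BRD7, exon 14 of 17: aaagaaatggagCAGattacagaagtagag
RFC1, exon 14 of 25: ataaaaaacacgCAGcaaagtttggtaaat

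All 39 triplets ended in AG, which the rule for placing them nearly sets, since the downstream acceptor lies right after the triplet. The first base was C in 26, A in 8, T in 4 and G in 1, the last being PTMA. In RPL11, BRD7, C17orf53 and PTMA, as in 11 genes in all, the triplet began on a codon boundary. In 20 genes, CRBN and PSEN2 among them, 1 base of a codon preceded it, and in 8 genes, ZCCHC11 among them, 2 bases did. All 4 TAG triplets (CKAP2, MCM10, METTL9 and SMOC1) lay off a codon boundary. The upstream exon ended in g in 35 of the 39 genes, and in 3 genes, as in PSEN2, the 3 bases after the triplet also ended in AG. The 2 isoforms of each of the 39 genes shared their start in the isoform table. For HDAC5, PLCG1, PLEKHB2 and STIL the matched GENCODE transcripts differed in a further exon as well.

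The other 20 genes were not placed in this way. VDAC3, a channel of the outer mitochondrial membrane, differed by a micro-exon of 3 nt, exon 5 of 11. For COQ6, CYTH1 and PPAP2A the matched transcripts had no exon starts or exon ends 3 nt apart, and no exon of 3 nt. Where their 3 nt difference lies was not placed, so their shares are not read as those of a tandem acceptor. COQ6 was also the 1 gene of the 59 whose isoforms had different starts. For the remaining 16 genes the isoforms could not be told apart by accession in GENCODE 29. Of these, ABCE1, APLP1, CAPNS1, NRGN, SLC35G1, TMEM219 and TRIM32 (7 genes) had exon starts 3 nt apart somewhere in the annotated gene, and BCKDHA, EIF2AK1, GEMIN5, GNG10, LEMD3, NSMCE4A, TGFBRAP1, ZFP91 and ZYX (9 genes) did not.

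The siRNA targets, the depth and the cell line were checked as follows. RNF111 had a gene FPKM of 1.15 in the Arkadia siRNA library (the authors' interval 0.500 to 1.82) and 7.65 in the ESRP2 siRNA library, against 6.38 (3.15 to 9.59) in the control siRNA library. ESRP2 had 21.2 in the Arkadia siRNA library and 4.27 (0.0878 to 9.33) in the ESRP2 siRNA library, against 14.8 (3.34 to 26.3) in the control siRNA library. Against control, the intervals were apart for RNF111 with Arkadia siRNA and overlapped for ESRP2 with ESRP2 siRNA. Fewer cells holding a transcript and less of it per cell cannot be told apart in such bulk libraries. From low values of long transcripts, the depth was estimated at 9.42 M reads with Arkadia siRNA, 13 M with ESRP2 siRNA and 12.5 M with control siRNA. Only values inside a fixed window entered, from 66, 53 and 48 transcripts in that order. The window bounds the estimate and could not show a much deeper library, so all read densities given here are rough. An FPKM of 5 then corresponds to 4.71, 6.51 and 6.26 reads per 100 nt in the same order. All 6 genes typical of HEK293T cells were present (PAX2, the lowest, at 0.835 to 2.13 FPKM), and 8 markers of other cell types had at most 0.585 FPKM, with HBB listed at 0 in each library.

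The pairs covered shares from near 0 to near 1 in each library. The share of the longer isoform in the summed FPKM of the pair had a median of 0.546 in the Arkadia siRNA library (quartiles 0.292 and 0.881), 0.557 in the ESRP2 siRNA library (0.226 and 0.887) and 0.561 in the control siRNA library (0.275 and 0.862). A share between 0.2 and 0.8 was found for 30, 26 and 27 genes in that order, above 0.8 for 17, 19 and 19, and below 0.2 for 12, 14 and 13. Of all 1552 genes with 2 isoforms, 471, 477 and 482 lay between 0.2 and 0.8. A further 524, 459 and 509 lay above 0.8, and 557, 616 and 561 below 0.2. Of the 59 genes, 17 stayed between 0.2 and 0.8 in every library, 13 stayed above 0.8 and 6 stayed below 0.2. The 13 were ABCE1, BCKDHA, BCL2L12, COG2, COMMD7, KIAA0922, LEMD3, MAN2B1, NSMCE4A, PLEKHB2, SLC25A36, SLC35G1 and ZFP91, and the 6 were PTMA, RIMS4, TMEM219, TRIM32, VDAC3 and ZYX. Over the 3 libraries the share moved by less than 0.1 in 20 of the 59 genes. Genes that stayed or moved in this way were not counted among all 1552.

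**Figure D1:**
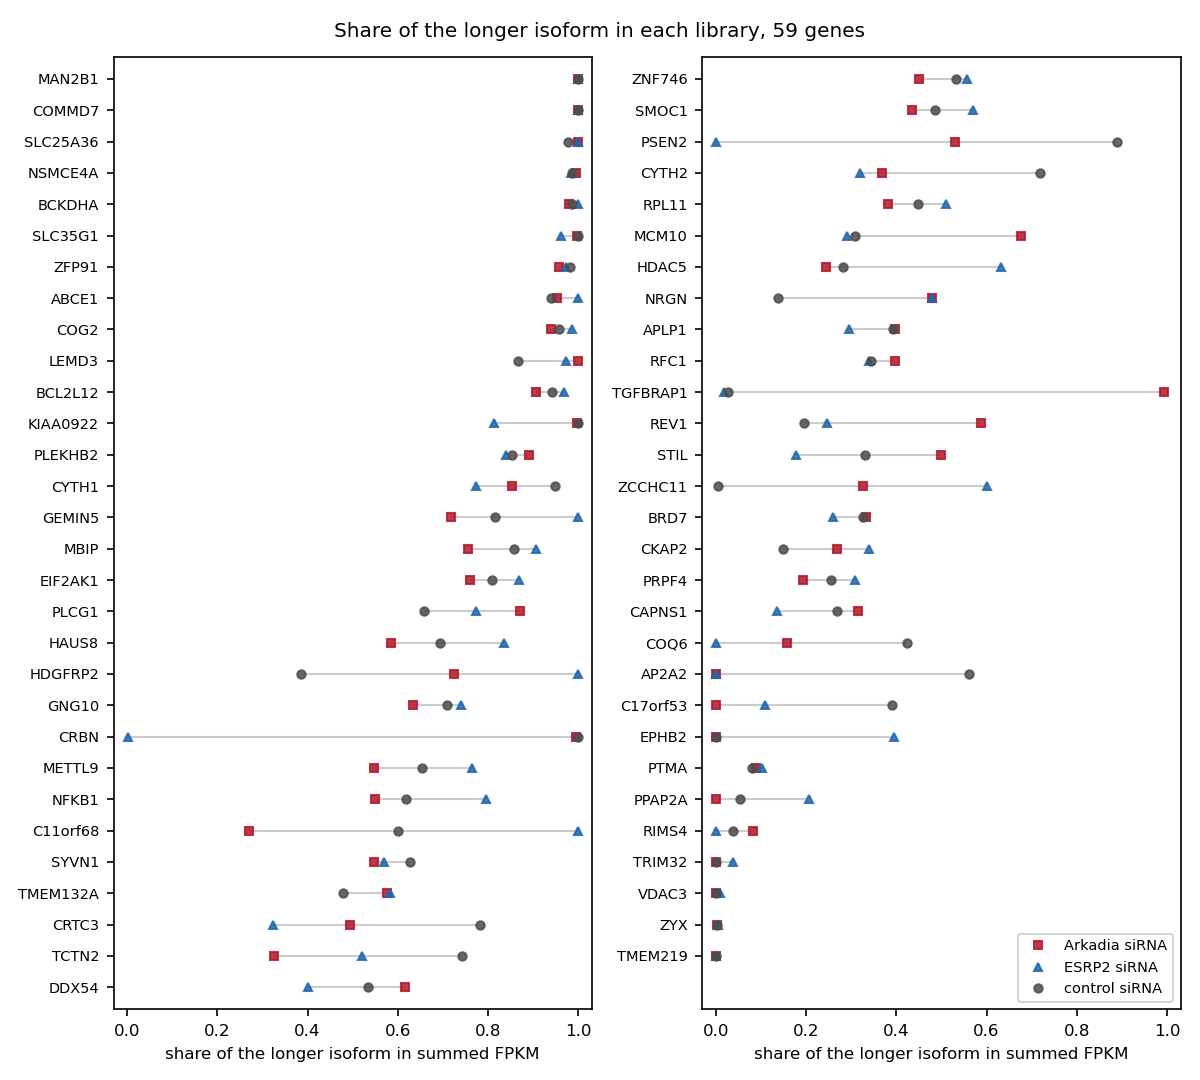
Share of the longer isoform (horizontal axis, 0 to 1) for each of the 59 genes in the Arkadia siRNA (squares), ESRP2 siRNA (triangles) and control siRNA (circles) libraries, ordered by the mean share from the top of the left panel to the bottom of the right panel. The 13 genes above 0.8 in every library fill the upper rows of the left panel, the 6 below 0.2 in every library lie in the lower rows of the right panel, and CRBN, PSEN2 and TGFBRAP1 have the longest connecting lines.

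The precision of a share was low. Reads away from the junction do not tell such isoforms apart, and the authors' FPKM intervals are wide. From them the widest possible range of each share was taken, from the lower bound of the longer isoform with the upper bound of the shorter one to the reverse. The median width of this range was 0.638 with Arkadia siRNA, 0.500 with ESRP2 siRNA and 0.587 with control siRNA. Over all 1552 genes with 2 isoforms it was 0.411, 0.381 and 0.407 in the same order. For 24 genes the share was within 0.005 of 0 or of 1 in at least 1 library. Some isoforms near 0 FPKM have an interval of 0 to 0 that does not contain the value, so a narrow range at a share of 0 or 1 is not a precise one. For PPAP2A and SYVN1 the range reached from 0 to 1 in every library.

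None of the 8 most abundant pairs changed by 0.25 between libraries. All 8 had 20 FPKM or more in every library. Among all genes with 2 isoforms at that level, 6.59% changed with Arkadia siRNA and 8.35% with ESRP2 siRNA. Between both siRNA libraries 13.5% differed, so 0 of 8 is not far from these shares. RPL11, a protein of the large ribosomal subunit that also binds MDM2 (chr1:24018269-24022915, hg19), had a summed FPKM of 1998 with Arkadia siRNA and 2189 with ESRP2 siRNA, against 1974 with control siRNA. Its longer isoform, which starts exon 2 with CAG, made up 0.383 with Arkadia siRNA and 0.511 with ESRP2 siRNA, against 0.447 with control siRNA. The control library lay between the other two, and all ranges overlapped. RPL11 and PTMA have processed pseudogenes elsewhere in the genome, so their reads can be shared and both values are uncertain.

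PTMA, prothymosin alpha, an acidic nuclear protein (chr2:232573235-232578250), was mostly the shorter isoform. The shorter one had an FPKM of 530 with Arkadia siRNA and 1041 with ESRP2 siRNA, against 845 with control siRNA, while the share of the longer isoform was 0.0883 with Arkadia siRNA and 0.102 with ESRP2 siRNA, against 0.0809 with control siRNA. The shorter isoform was the main one in every library, and the ranges of the share overlapped. BRD7, a bromodomain subunit of the PBAF chromatin complex (chr16:50352929-50402845), had shares of 0.333 with Arkadia siRNA and 0.260 with ESRP2 siRNA, against 0.327 with control siRNA. CAPNS1, the small subunit of the calpain proteases (chr19:36630918-36641255), had 0.315 with Arkadia siRNA and 0.135 with ESRP2 siRNA, against 0.268 with control siRNA, so it was lowest with ESRP2 siRNA, with ranges that overlapped.

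The other 4 of the 8 most abundant pairs were close to a single isoform. VDAC3 was nearly all without its micro-exon: the isoform with it was listed at 0 with Arkadia siRNA and with control siRNA and had an FPKM of 1.44, a share of 0.0102, with ESRP2 siRNA. The other isoform had 142 FPKM with Arkadia siRNA and 140 with ESRP2 siRNA, against 141 with control siRNA. NSMCE4A, a subunit of the SMC5/6 complex, was nearly all the longer isoform, with shares of 0.9947 with Arkadia siRNA and 0.984 with ESRP2 siRNA, against 0.985 with control siRNA. TMEM219 and ZYX, the focal adhesion protein zyxin, were nearly all the shorter isoform, with shares of at most 0.00101 for TMEM219 and at most 0.00443 for ZYX. The locus given for ZYX, chr7:143078360-143220540, is long and may hold a neighbouring gene.

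**Figure D2:**
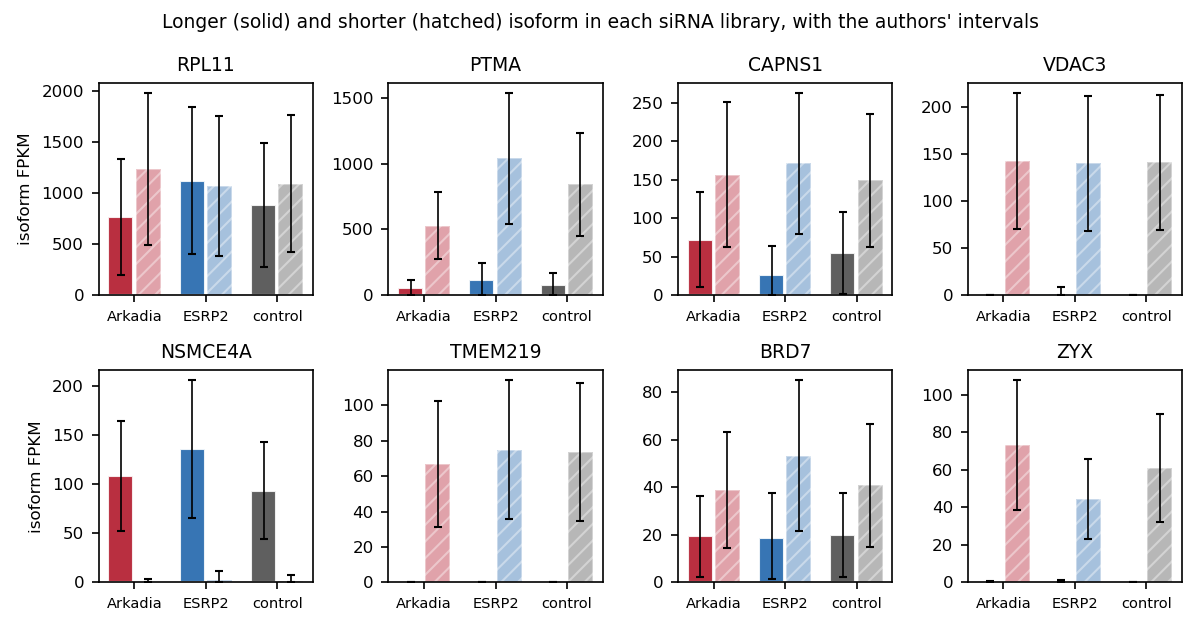
FPKM of the longer (solid) and shorter (hatched) isoform of the 8 pairs with the highest mean summed FPKM, by library (Arkadia siRNA, ESRP2 siRNA, control siRNA from left to right), with the authors' intervals as error bars. RPL11 and BRD7 use both isoforms in every library, and VDAC3, NSMCE4A, TMEM219 and ZYX are close to 1 isoform in every library.

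Further genes held a mixed balance in all libraries. RFC1, the large subunit of the clamp loader of DNA replication, had shares of 0.396 with Arkadia siRNA and 0.339 with ESRP2 siRNA, against 0.345 with control siRNA, and was the steadiest of the mixed genes. SYVN1, the ubiquitin ligase of endoplasmic reticulum quality control, had 0.548 with Arkadia siRNA and 0.569 with ESRP2 siRNA, against 0.627 with control siRNA. The amyloid precursor relative APLP1, TMEM132A, the G protein subunit GNG10 and the zinc finger gene ZNF746 completed, with RPL11 and BRD7, the 8 mixed genes with the smallest movement. The shares of APLP1, TMEM132A, GNG10 and ZNF746 ran between 0.296 (APLP1, ESRP2 siRNA) and 0.740 (GNG10, ESRP2 siRNA). The 8 were chosen for the smallest movement, so that none moved by 0.25 between any pair of libraries goes with that choice.

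In the Arkadia siRNA library, the share of the longer isoform rose by 0.25 or more against control siRNA in 6 of the 59 genes and fell in 8. Rises were found in TGFBRAP1, MCM10, NRGN, HDGFRP2, ZCCHC11 and REV1, and falls in AP2A2, TCTN2, C17orf53, PSEN2, CYTH2, C11orf68, CRTC3 and COQ6. These 14 genes are 23.7% of the pairs, whereas 10.5% of all 1552 genes with 2 isoforms changed by as much (5.86% up and 4.64% down). In every library the 59 also had wider ranges, and more often a mixed share, than all 1552. The part of this in the percentages, here and in the other comparisons, was not tested. The ranges of the share did not overlap in 3 of the 59 genes (TGFBRAP1, AP2A2 and C17orf53, all among the 14), which is 5.08%, against 2.84% of all 1552. The median change over the 59 was close to 0, at -0.0017, against 0 over all 1552.

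TGFBRAP1, an endosomal tethering protein that binds TGF-beta receptors (chr2:105883540-105946148), had the largest change. Its longer isoform had an FPKM of 13.0 with Arkadia siRNA and 0.262 with ESRP2 siRNA, against 0.265 with control siRNA, and its shorter isoform had 0.0972, 14.8 and 9.75 in the same order. The Arkadia siRNA library thus held almost only the longer isoform (share 0.993) and the ESRP2 and control siRNA libraries almost only the shorter one (0.0175 and 0.0264). The range of the share was 0.907 to 1 with Arkadia siRNA, against 0 to 0.216 with control siRNA. TGFBRAP1 is among the 9 genes for which no acceptors 3 nt apart were found in GENCODE 29, so where its isoforms differ is not known here. The density was low, with an estimated 12.3 reads per 100 nt with Arkadia siRNA, 19.5 with ESRP2 siRNA and 12.5 with control siRNA.

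MCM10, a factor that activates replication origins (chr10:13203554-13253104), rose with Arkadia siRNA, and its change with ESRP2 siRNA was -0.0184. The longer isoform, with TAG at the start of exon 5, had an FPKM of 17.6 with Arkadia siRNA and 11.04 with ESRP2 siRNA, against 8.99 with control siRNA. The shorter one had 8.43 with Arkadia siRNA and 26.9 with ESRP2 siRNA, against 20.1 with control siRNA. The shares were 0.676 with Arkadia siRNA and 0.291 with ESRP2 siRNA, against 0.309 with control siRNA. The Arkadia siRNA library stood above the other two, and its range of 0.291 to 0.969 overlapped the control range of 0.031 to 0.694.

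AP2A2, the alpha subunit of the AP-2 adaptor of clathrin-coated vesicles (chr11:925809-1012245), had almost none of its longer isoform in either siRNA library. The isoform with AAG at exon 8 had an FPKM of 0.0259 with Arkadia siRNA and 0.0114 with ESRP2 siRNA, against 8.60 with control siRNA. The shorter isoform had 22.8 with Arkadia siRNA and 9.91 with ESRP2 siRNA, against 6.73 with control siRNA. The share was 0.00113 with Arkadia siRNA and 0.00115 with ESRP2 siRNA, against 0.561 with control siRNA, whose range of 0.178 to 0.906 overlapped neither of the others.

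Among the genes of DNA repair and cilia, C17orf53, a homologous recombination factor (chr17:42219274-42239844), had shares of 0 with Arkadia siRNA and 0.110 with ESRP2 siRNA, against 0.391 with control siRNA. Its longer isoform was listed at 0 with Arkadia siRNA and had an FPKM of 0.775 with ESRP2 siRNA, against 2.98 with control siRNA, all low levels. REV1, a polymerase of translesion synthesis, had shares of 0.587 with Arkadia siRNA and 0.246 with ESRP2 siRNA, against 0.196 with control siRNA. TCTN2, a protein of the ciliary transition zone, had 0.327 with Arkadia siRNA and 0.520 with ESRP2 siRNA, against 0.742 with control siRNA. The ranges of REV1 and TCTN2 overlapped between all libraries.

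In the ESRP2 siRNA library, 6 genes rose and 7 fell by 0.25 or more against control siRNA. The rises were in HDGFRP2, ZCCHC11, C11orf68, EPHB2, HDAC5 and NRGN, and the falls in CRBN, PSEN2, AP2A2, CRTC3, COQ6, CYTH2 and C17orf53. These 13 genes are 22.03% of the pairs, whereas 12.4% of all 1552 genes changed by as much (3.87% up and 8.57% down). The ranges of the share did not overlap in 10 of the 59 genes, which is 16.9%, against 3.8% of all 1552. In 7 of the 10 at least 1 isoform had an interval of 0 to 0 (COQ6, CRBN, EPHB2, GEMIN5, HDGFRP2, KIAA0922 and PSEN2). Such intervals were not counted among all 1552 genes, so the 2 percentages cannot be compared without them. Of the 13 changed genes, 8 had ranges that did not overlap. The other 2 of the 10 were GEMIN5 and KIAA0922, whose changes of 0.18 and -0.19 did not reach the size. The median change was 0.0151 over the 59 and -0.0011 over all 1552.

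CRBN, the substrate receptor of a CRL4 ubiquitin ligase and the target of thalidomide (chr3:3191317-3221401), changed isoform almost completely. Its longer isoform, with CAG at the start of exon 2, had an FPKM of 10.7 with Arkadia siRNA and 0.0518 with ESRP2 siRNA, against 15.01 with control siRNA. Its shorter isoform had 0.0459 with Arkadia siRNA and 23.2 with ESRP2 siRNA, against 0.00639 with control siRNA. The share was 0.996 with Arkadia siRNA and 0.00223 with ESRP2 siRNA, against 0.9996 with control siRNA. Only the ESRP2 siRNA library stood apart, with a range of 0 to 0.0224. An estimated 30.2 reads per 100 nt lay behind it, against 18.8 with control siRNA. With control siRNA the shorter isoform had an interval of 0 to 0, so the control range is not a precise one.

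PSEN2, a catalytic subunit of gamma-secretase (chr1:227058273-227083804), had the next largest fall. The longer isoform, with AAG at exon 11, had an FPKM of 18.0 with Arkadia siRNA and 0.00812 with ESRP2 siRNA, against 23.3 with control siRNA. The shorter isoform had 15.9 with Arkadia siRNA and 12.8 with ESRP2 siRNA, against 2.94 with control siRNA. The shares were 0.531 with Arkadia siRNA and 0.000634 with ESRP2 siRNA, against 0.888 with control siRNA. The range with control siRNA was 0.565 to 1 and did not overlap that with ESRP2 siRNA, but it overlapped that with Arkadia siRNA, 0.157 to 0.891. With ESRP2 siRNA the longer isoform had an interval of 0 to 0, so the range there is not a precise one.

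HDGFRP2, a PWWP-domain protein of chromatin (chr19:4472255-4517716), moved the other way. Its shorter isoform had an FPKM of 13.7 with Arkadia siRNA and 0.00585 with ESRP2 siRNA, against 24.2 with control siRNA, and its longer isoform, with CAG at exon 16, had 36.05 with Arkadia siRNA and 25.7 with ESRP2 siRNA, against 15.1 with control siRNA. The share was 0.725 with Arkadia siRNA and 0.9998 with ESRP2 siRNA, against 0.384 with control siRNA. Both siRNA libraries were above the control, and the control range of 0.0893 to 0.734 overlapped that with Arkadia siRNA and not that with ESRP2 siRNA. With ESRP2 siRNA the shorter isoform had an interval of 0 to 0, so the range there is not a precise one.

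ZCCHC11, a terminal uridylyltransferase that acts on microRNA precursors (chr1:52888948-53018762), hardly used its upstream acceptor with control siRNA. The longer isoform had an FPKM of 2.39 with Arkadia siRNA and 8.78 with ESRP2 siRNA, against 0.0618 with control siRNA, and the shares were 0.327 with Arkadia siRNA and 0.602 with ESRP2 siRNA, against 0.00459 with control siRNA. The control range ended at 0.056, below the ESRP2 siRNA range of 0.216 to 0.928. With Arkadia siRNA the range began at 0.0249 and overlapped the control, at an estimated 6.88 reads per 100 nt.

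CRTC3, a coactivator of CREB (chr15:91073198-91188577), had shares of 0.493 with Arkadia siRNA and 0.324 with ESRP2 siRNA, against 0.783 with control siRNA. CYTH2, an exchange factor for ARF GTPases (chr19:48972465-48985571), had 0.369 with Arkadia siRNA and 0.320 with ESRP2 siRNA, against 0.717 with control siRNA. NRGN, a calmodulin-binding protein of synapses (chr11:124609829-124617102), had 0.480 with Arkadia siRNA and 0.478 with ESRP2 siRNA, against 0.137 with control siRNA. In each of these 3 genes the control library stood on one side of the other two, and all ranges overlapped.

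EPHB2, a receptor for ephrin-B ligands, and HDAC5, a class IIa histone deacetylase, changed with ESRP2 siRNA at low levels. EPHB2 had shares of 1.47e-05 with Arkadia siRNA and 0.394 with ESRP2 siRNA, against 0.000285 with control siRNA, at summed FPKM of 8.41, 6.50 and 8.26 in the same order. HDAC5 had shares of 0.245 with Arkadia siRNA and 0.631 with ESRP2 siRNA, against 0.281 with control siRNA. The EPHB2 ranges with ESRP2 siRNA and with control siRNA did not overlap, and those of HDAC5 did. The longer isoform of EPHB2 had an interval of 0 to 0 with control siRNA, so its control range is not a precise one. COQ6, an enzyme of coenzyme Q synthesis whose isoforms differ at their start, had 0.157 with Arkadia siRNA and 0.000308 with ESRP2 siRNA, against 0.423 with control siRNA.

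**Figure D3:**
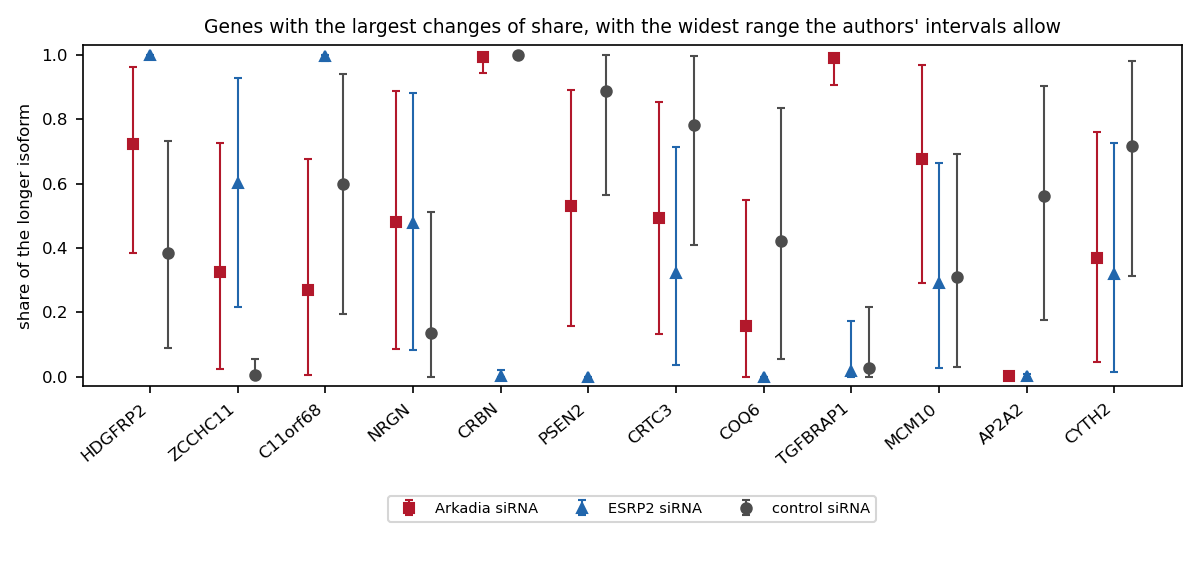
Share of the longer isoform in the Arkadia siRNA (squares), ESRP2 siRNA (triangles) and control siRNA (circles) libraries for the 12 genes named for the largest changes, with the widest range that the authors' FPKM intervals allow as error bars. CRBN and PSEN2 are near 0 with ESRP2 siRNA alone, TGFBRAP1 is near 1 with Arkadia siRNA alone, and AP2A2 is near 0 with both.

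Both comparisons use the same control library, so a gene that moved one way in both is equally one in which that library stood apart. HDGFRP2, NRGN and ZCCHC11 rose in both and AP2A2, C17orf53, COQ6, CRTC3, CYTH2 and PSEN2 fell in both. The changes of NRGN were 0.34 with Arkadia siRNA and 0.34 with ESRP2 siRNA, those of AP2A2 were -0.56 and -0.56, and those of PSEN2 were -0.36 and -0.89. C11orf68 (chr11:65684283-65686531) was the 1 gene that passed the size in opposite directions. Its share was 0.270 with Arkadia siRNA and 0.998 with ESRP2 siRNA, against 0.600 with control siRNA, so the control lay between the other libraries. Neither siRNA changed the share by 0.25 in 42 of the 59 genes. Genes that moved alike in both comparisons, in opposite directions or in neither were not counted among all 1552 genes. How many would be found with a shared control library is therefore not known here, and these counts have no percentage of all genes beside them.

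Some of these 42 genes moved against control by less than that size. One of them, HAUS8, passed it between the Arkadia and ESRP2 siRNA libraries, at -0.2504. NFKB1, which encodes the p50 subunit of NF-kappaB, had shares of 0.5495 with Arkadia siRNA and 0.795 with ESRP2 siRNA, against 0.617 with control siRNA. PLCG1, a phospholipase C activated by receptor tyrosine kinases, had 0.872 with Arkadia siRNA and 0.773 with ESRP2 siRNA, against 0.659 with control siRNA. HAUS8, a subunit of the augmin complex of the spindle, had 0.584 with Arkadia siRNA and 0.834 with ESRP2 siRNA, against 0.693 with control siRNA. NFKB1 and HAUS8 were highest with ESRP2 siRNA and PLCG1 was highest with Arkadia siRNA, and for all 3 genes the ranges of the libraries overlapped. CKAP2, a spindle protein with a TAG triplet, had 0.269 with Arkadia siRNA and 0.339 with ESRP2 siRNA, against 0.1497 with control siRNA, also with overlapping ranges.

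Set directly against each other, the Arkadia and ESRP2 siRNA libraries differed by 0.25 or more in 13 genes, 6 with a higher longer share with Arkadia siRNA (CRBN, TGFBRAP1, PSEN2, MCM10, REV1 and STIL) and 7 with a lower one (C11orf68, EPHB2, HDAC5, GEMIN5, ZCCHC11, HDGFRP2 and HAUS8). That is 22.03% of the pairs, beside 16.9% of all 1552 genes (11.6% up and 5.35% down). The ranges did not overlap in 7 genes, 11.9% of the 59 (CRBN, TGFBRAP1, PSEN2, C11orf68, EPHB2, GEMIN5 and HDGFRP2), against 5.48% of all 1552. In 4 of the 7 (PSEN2, EPHB2, GEMIN5 and HDGFRP2) at least 1 isoform had an interval of 0 to 0. Such intervals were not counted among all 1552 genes. The differences were 0.99 in CRBN, 0.98 in TGFBRAP1, 0.53 in PSEN2 and -0.73 in C11orf68. AP2A2, CYTH2 and NRGN, which had moved against control in both comparisons, differed between the siRNA libraries by less than 0.05.

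The changes lay mostly in the less abundant pairs. Of the 23 genes whose pair summed to 20 FPKM or more in all libraries, 3 changed with Arkadia siRNA (COQ6, HDGFRP2 and MCM10) and 2 with ESRP2 siRNA (COQ6 and HDGFRP2), and 3 differed between both siRNA libraries (GEMIN5, HDGFRP2 and MCM10). Of the 36 genes below 20 in some library, 11, 11 and 10 did. Among all genes with 2 isoforms the shares were 6.59%, 8.35% and 13.5% at 20 or more, and 13.6%, 15.7% and 19.7% below. In the more abundant group the 3 nt pairs thus had 13.0%, 8.70% and 13.0%, and in the less abundant one 30.6%, 30.6% and 27.8%. The part of the read number in these changes was not tested.

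**Figure D4:**
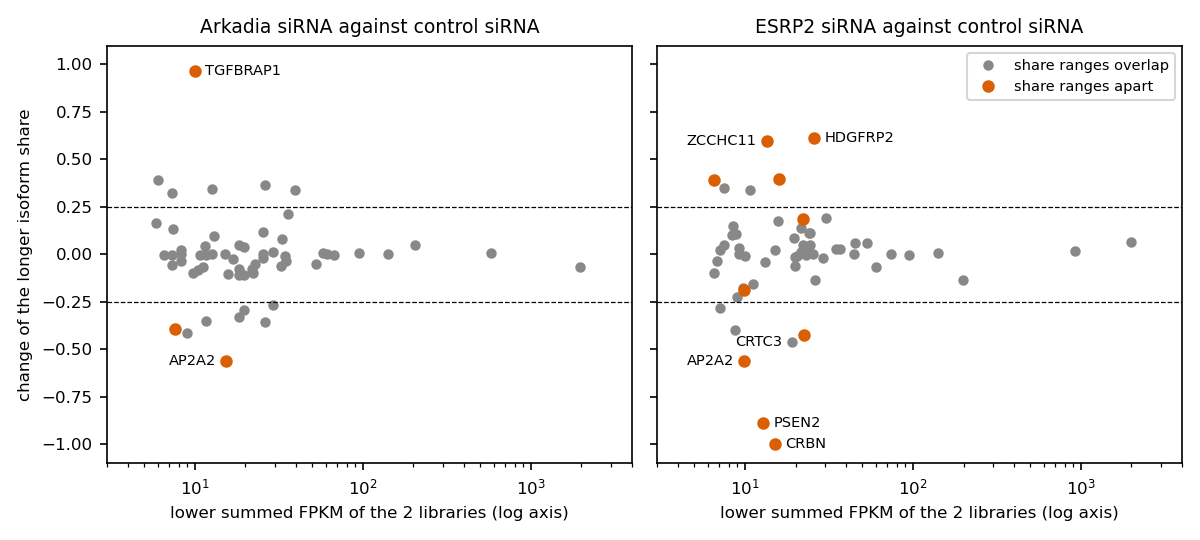
Change of the longer isoform share (vertical axis) against the lower summed FPKM of the 2 libraries compared (horizontal log axis) for the 59 genes, with Arkadia siRNA against control siRNA on the left and ESRP2 siRNA against control siRNA on the right. Dashed lines mark changes of 0.25, orange points are genes whose share ranges do not overlap, and the 4 most abundant genes at the right (VDAC3, CAPNS1, PTMA and RPL11) stay between the lines.

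Pairs with other length differences were set beside them. Of the 173 genes whose isoforms differ by 1 to 30 nt other than 3, 20.2% changed with Arkadia siRNA and 13.9% with ESRP2 siRNA, and 19.1% differed between both siRNA libraries. Of the 1317 genes whose isoforms differ by more than 30 nt, 8.66%, 11.8% and 16.4% did. The 3 nt pairs had 23.7%, 22.03% and 22.03% in the same order. These differences between groups of genes have no test.

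The genes were also split by the first base of the triplet. Of the 8 AAG genes, with Arkadia siRNA 0 rose and 4 fell (AP2A2, TCTN2, PSEN2 and CRTC3), and with ESRP2 siRNA 1 rose (EPHB2) and 3 fell (AP2A2, PSEN2 and CRTC3). Between the Arkadia and ESRP2 siRNA libraries 1 was higher (PSEN2) and 1 lower (EPHB2). Of all 1552 genes, the changed ones made up 5.86% up and 4.64% down with Arkadia siRNA, 3.87% and 8.57% with ESRP2 siRNA, and 11.6% and 5.35% between both siRNA libraries. The median share of the AAG genes was 0.410 with Arkadia siRNA and 0.359 with ESRP2 siRNA, against 0.763 with control siRNA. The 26 CAG genes had 3 rises and 3 falls with Arkadia siRNA, 4 and 3 with ESRP2 siRNA, and 3 higher and 5 lower between both siRNA libraries. The median shares of the CAG genes were 0.563 with Arkadia siRNA and 0.592 with ESRP2 siRNA, against 0.567 with control siRNA. Both comparisons with control share that library, and the split by triplet was made with the shares known. Of the 39 genes with a placed tandem acceptor, 11 changed in each of the 3 comparisons, beside 10.5% of all 1552 genes with Arkadia siRNA, 12.4% with ESRP2 siRNA and 16.9% between both siRNA libraries.

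Grouped by what the proteins do, the groups are small, and their counts stand beside 5.86% rises and 4.64% falls over all 1552 genes with Arkadia siRNA, and 3.87% and 8.57% with ESRP2 siRNA. Of the 5 genes of DNA replication and repair, MCM10 and REV1 rose and C17orf53 fell with Arkadia siRNA and C17orf53 fell with ESRP2 siRNA, while RFC1 and NSMCE4A did not pass 0.25. Of the 5 genes of membrane traffic, AP2A2 and CYTH2 fell with each siRNA, and COG2, CYTH1 and PLEKHB2 did not pass. Of the 7 genes of metabolism and mitochondria, COQ6 fell in both comparisons. Of the 6 genes of proteolysis and ubiquitin, PSEN2 fell with Arkadia siRNA, and CRBN and PSEN2 fell with ESRP2 siRNA. The 8 genes of transcription and chromatin had a rise of HDGFRP2 and a fall of CRTC3 with Arkadia siRNA, and rises of HDGFRP2 and HDAC5 and a fall of CRTC3 with ESRP2 siRNA. Of the 7 genes of signalling and cell death, TGFBRAP1 rose with Arkadia siRNA and 0 passed with ESRP2 siRNA. Of the 4 neuronal and receptor genes, NRGN rose with Arkadia siRNA, and NRGN and EPHB2 rose with ESRP2 siRNA. Of the 4 genes of mitosis and the centrosome, TCTN2 fell with Arkadia siRNA and 0 passed with ESRP2 siRNA. Of the 6 other genes, C11orf68 fell with Arkadia siRNA and rose with ESRP2 siRNA.

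Among the 7 RNA genes, ZCCHC11 passed 0.25 against control in both comparisons, beside 10.5% of all 1552 genes with Arkadia siRNA and 12.4% with ESRP2 siRNA. ABCE1, which recycles ribosomes, had shares of 0.953 with Arkadia siRNA and 1 with ESRP2 siRNA, against 0.940 with control siRNA. EIF2AK1, the haem-regulated kinase of eIF2alpha, had 0.760 with Arkadia siRNA and 0.869 with ESRP2 siRNA, against 0.808 with control siRNA. GEMIN5, the RNA-binding subunit of the SMN complex, had 0.718 with Arkadia siRNA and 1 with ESRP2 siRNA, against 0.815 with control siRNA, and differed by 0.25 only between both siRNA libraries. The helicase DDX54 had 0.615 with Arkadia siRNA and 0.401 with ESRP2 siRNA, against 0.534 with control siRNA. The U4/U6 snRNP protein PRPF4 had 0.193 with Arkadia siRNA and 0.307 with ESRP2 siRNA, against 0.256 with control siRNA. ABCE1, EIF2AK1, GEMIN5, DDX54, PRPF4 and RPL11 did not pass 0.25 against control.

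Genes for splicing factors were measured at the gene level, as log2 of the ratio of FPKM + 1, with 1.5-fold as the size. The list was drawn around 3′ splice site recognition and the second catalytic step. It also holds factors with other parts in splicing, such as DHX15, DHX16, SRSF1 and SRSF2. Of the 27 listed, all 27 entered. With Arkadia siRNA 2 were higher (PUF60 and C19orf29) and 2 lower (SF3B14 and SLU7), with a median of 0.11, against 10% higher and 11.9% lower and a median of -0.02 over 11975 genes. With ESRP2 siRNA 3 were higher (SLU7, CDC40 and DHX15) and 6 lower (U2AF2, U2AF1, U2AF1L4, PUF60, SF1 and SRSF2), with a median of -0.25, against 20% higher and 11.6% lower and a median of 0.12 over 11975 genes. Between the Arkadia and ESRP2 siRNA libraries 8 were higher and 6 lower, with a median of 0.27, against 21.4% higher and 30.8% lower and a median of -0.13. After rescaling by the median of ratios that split was 11 higher and 4 lower.

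U2AF2, the subunit of U2AF that binds the polypyrimidine tract, had a gene FPKM of 220 with Arkadia siRNA and 84.4 with ESRP2 siRNA, against 195 with control siRNA. U2AF1, the subunit that binds the AG, had 208 with Arkadia siRNA and 124 with ESRP2 siRNA, against 213 with control siRNA. SLU7, which acts in the choice of the AG at the second step, had 11.8 with Arkadia siRNA and 37.4 with ESRP2 siRNA, against 20.1 with control siRNA. For these 3 genes the authors' intervals of each siRNA library overlapped that of the control. The part of these levels in the shares was not tested.

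The threshold of 5 FPKM falls between STIL and TMEM171. Just inside it, STIL, a centriole duplication protein, had a lowest summed FPKM of 5.90 and shares of 0.498 with Arkadia siRNA and 0.177 with ESRP2 siRNA, against 0.331 with control siRNA, and REV1 had a lowest summed FPKM of 6.05. Just outside it, TMEM171 had 4.92 and shares of 0.660 with Arkadia siRNA and 0.9998 with ESRP2 siRNA, against 0.9998 with control siRNA. SBNO1 had 3.87 and shares of 0.500 with Arkadia siRNA and 0.306 with ESRP2 siRNA, against 0.842 with control siRNA.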

How the data were processed

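Per the labels' protocols, poly(A) RNA went through the Ion Total RNA-seq kit. The authors deposited FPKM values per gene and isoform, with lower and upper bounds and a status, per the file headers. The submitters' processing notes name Cufflinks 2.1.1, Cuffdiff, TopHat2 2.0.10 and Bowtie2 2.1.0, with build hg19. For the Cuffdiff version, scaling and strand setting, the sources used here say nothing. No counts were used. Depth was estimated from low FPKM values, inside a fixed window, of single-isoform transcripts of at least 5000 nt.

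The share is the longer isoform's FPKM over the sum of both, and a change of 0.25 counts as a rise or fall. A self-test on simulated shares was run. Gene levels used log2(FPKM + 1), which understates low genes, for a mean FPKM of at least 1. Python 3.11.15 and pandas 2.3.3 were used. Exon structure came from GENCODE 29 on GRCh38, so its coordinates were not joined to hg19 positions, which are given from 1. Intron sequence and proteins were not used here.

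Named genes were the 8 largest rises and falls against control at a summed FPKM of at least 10, the 8 most abundant, the 8 steadiest mixed genes, those moving alike with both siRNAs, RNA genes and the threshold's neighbours. EPHB2, HDAC5, TCTN2, NFKB1, PLCG1, HAUS8, CKAP2 and a few further genes were named after their values were seen, to complete short lists, as were the role groups and the split by triplet. The members and lists were chosen with earlier results of these data known. Alternatives covered the FPKM minimum, the size of change, 1 FPKM added, isoforms above 0, placed acceptors, and for gene levels the pseudocount, scaling, filter and fold.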

Additional observations from a re-analysis of the deposited data

How the results depend on the processing

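With a summed FPKM of at least 10 the genes that changed numbered 8 of 38 with Arkadia siRNA against control siRNA (14 of 59 as reported), 7 with ESRP2 siRNA against control siRNA (13 as reported) and 8 between the Arkadia and ESRP2 siRNA libraries (13 as reported). With at least 20 they numbered 3, 2 and 3 of 23, in the same order, beside 6.59%, 8.35% and 13.5% of all genes with 2 isoforms at that minimum. A size of 0.40 gave 3, 7 and 4 genes, and a size of 0.15 gave 16, 21 and 22. In a count chosen after seeing the data, of genes with a share between 0.02 and 0.98 in both libraries, 10, 5 and 6 changed. Fewer genes enter under the FPKM minimums and under the limits on the share. With 1 FPKM added to each isoform (14, 12 and 10), with both isoforms above 0 (13 each) and with a placed tandem acceptor (11 each) the counts stayed within 1.5 times. The setting above 0 kept 56, 57 and 55 of the 59 genes, since isoforms far below 1 FPKM pass it. It could hardly move the counts and is a weak check. Apart from the minimum of 20, these settings were not applied to all genes with 2 isoforms. The counts therefore have no such share beside them. Of 24 changes of named genes, 23 stayed at 0.25 or more with 1 FPKM added and 0 turned round. That of C17orf53 with ESRP2 siRNA was -0.22, against -0.28 as reported. Adding 1 FPKM pulls both shares towards the middle and so shrinks a change. It could hardly turn one round at these levels, so this setting is a weak check. At 2-fold, 1, 1 and 6 genes of the splice site list passed, against 4, 9 and 14 at 1.5-fold, and a pseudocount of 0.1, rescaling and no filter kept these counts within 1.5 times. No paired analysis was possible because each siRNA has 1 library, and no library could be left out. Depth limits every share of pairs near 5 FPKM, where 4.71 to 6.51 reads per 100 nt are a rough estimate.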
